A study of Mus musculus with 4 samples.

Results

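The kappa variable segments (Igkv) were taken as every gene whose symbol starts with Igkv and that had at least 1 UMI (a counted RNA molecule) over the 4 libraries. They came to 125 of the 160 Igkv symbols listed, out of 31053 genes, and the other 35 symbols had no UMI. The cells were sorted for CD45, a surface marker of white blood cells, out of the Peyer's patches (the antibody-forming lymphoid tissue along the small bowel) of female wild-type mice bought from Taconic. SFB-positive mice carried segmented filamentous bacteria, a gut commensal that attaches to the epithelium, and SFB-negative mice did not. Each group had 2 droplet libraries made with a 3′ kit, and per the labels the patches of 5 mice were pooled per group. The labels do not say whether replicates 1 and 2 came from separate pools, so any p-value measures only the spread between libraries, which may be technical.

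A B cell makes its kappa light chain by joining 1 variable segment to a short J segment upstream of the constant gene Igkc, and most B cells end with a single productive light chain. The segment forms most of the antigen-binding face of the light chain, so the segment in a cell's transcripts tells which light chain the cell carries. B cells that share a segment may be related by descent or may have made the same join independently. Germinal-centre B cells, which multiply and mutate their segments, differentiate into plasma cells, which transcribe the joined gene at very high levels. A 3′ kit reads the constant end of the transcript, and the variable segment lies at the other end.

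All 125 members lay on chromosome 6, upstream of Igkj1, within 3167 kb of it on the GRCm38 (mm10) build. Igkc itself lies at chr6:70726435-70726966 on the plus strand. The GENCODE M21 annotation gives 98 members as functional variable genes and 27 as pseudogenes, and the pseudogenes held 136 of the 11679 Igkv UMIs (1.16%). The members stood on both strands, 52 on plus and 73 on minus, and belonged to 20 families by the first number of the symbol. Family 1, with 10 members, held 31.1% of the UMIs. Igkv1-117 (chr6:68121046-68121827, plus strand) led with 1527 UMIs and Igkv1-110 (chr6:68270485-68271267, plus strand) followed with 1471. Together these made up 25.7% of all Igkv UMIs, and the next member had 474. At the other end, 45 members had under 10 UMIs.

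Igkv1-110 and Igkv1-117 are near-identical. The last 300 of the 359 bases of their coding sequences (GENCODE M21 transcripts, GRCm38) are shown because most results turn on telling the pair apart. Capitals mark the 10 positions at which the stretches differ, and identity over the whole coding sequence was 97.2%.
Igkv1-110: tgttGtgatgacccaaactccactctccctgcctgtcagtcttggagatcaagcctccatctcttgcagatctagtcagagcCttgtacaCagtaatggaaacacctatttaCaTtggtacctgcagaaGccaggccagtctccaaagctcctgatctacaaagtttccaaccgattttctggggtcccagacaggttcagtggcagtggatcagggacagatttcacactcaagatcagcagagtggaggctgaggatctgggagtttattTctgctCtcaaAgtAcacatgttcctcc
Igkv1-117: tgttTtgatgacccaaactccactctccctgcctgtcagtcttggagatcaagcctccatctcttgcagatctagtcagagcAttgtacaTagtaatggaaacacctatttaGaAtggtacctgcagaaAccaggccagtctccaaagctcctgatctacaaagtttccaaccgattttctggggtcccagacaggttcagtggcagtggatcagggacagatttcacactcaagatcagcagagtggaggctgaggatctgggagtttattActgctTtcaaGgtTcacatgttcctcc
Of the 98 members with a coding sequence, 34 had another member at 95% identity or more, so reads of such segments, above all mutated ones from germinal-centre cells, can be counted for the wrong member, and their values are uncertain to that extent. The ends of the other segments named most often below are given from the same transcripts. Capitals mark the stretch from the codon of the last conserved cysteine to the joining end, which becomes the start of the most variable of the light chain's hypervariable loops.
Igkv1-135: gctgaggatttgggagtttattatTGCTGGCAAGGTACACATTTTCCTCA
Igkv12-44: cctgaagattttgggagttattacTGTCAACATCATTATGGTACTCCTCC
Igkv19-93: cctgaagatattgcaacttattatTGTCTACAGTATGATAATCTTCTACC
Igkv8-24: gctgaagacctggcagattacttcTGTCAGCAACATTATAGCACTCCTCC
Igkv8-30: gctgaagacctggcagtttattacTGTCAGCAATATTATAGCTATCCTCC
Igkv9-120: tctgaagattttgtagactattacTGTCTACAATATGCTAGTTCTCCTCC
Igkv1-135 lies at chr6:67609713-67610508 and Igkv9-120 at chr6:68049983-68050456, both on the plus strand and both far from Igkc. Igkv8-24 (chr6:70216858-70217421), Igkv8-30 (chr6:70117061-70117620), Igkv12-44 (chr6:69814631-69815154) and Igkv19-93 (chr6:68736297-68736780) are on the minus strand.

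The libraries differed strongly in how much of the light chain they captured. They held 6979187 and 83600989 UMIs in SFB-positive replicates 1 and 2, and 7198366 and 47273320 in SFB-negative replicates 1 and 2. The authors' cell table kept 3408 and 7380 SFB-positive cells and 4050 and 7731 SFB-negative cells in clusters 0 to 6. Per the labels 6000 cells were loaded and 4000 targeted per library, so both replicate 2 libraries hold more table cells than were loaded. Levels are given as CPM, the UMIs of a gene or list scaled to a library total of 1000000. By summed marker levels cluster 3 was germinal-centre-like (2180 CPM of 8 markers, against 103 in cluster 0), cluster 6 plasma-like (35258 CPM of 8 markers, against 463 in cluster 0) and cluster 4 memory-like (1082 CPM of 7 markers, against 422 in cluster 0). Cluster 0 was naive-like (2488 CPM of 6 markers, against 334 in cluster 3), and so was cluster 1 (3741 CPM). Cluster 2 was activated-like (1551 CPM of 5 markers, against 649 in cluster 0). Cluster 1 stood close to it in these markers (1488 CPM), and cluster 2 also held naive markers at 2206 CPM. Cluster 5, with a median of 1115 UMIs per cell in SFB-positive replicate 2 and 1289 in SFB-negative replicate 2, was left unnamed for its depth, with germinal-centre markers at 2071 CPM. The replicate 1 libraries shared 30 cell barcodes and the replicate 2 libraries shared 40, and no other pair shared more than 1. Replicate number also went with the Cell Ranger version, with the presence of 15 antibody tags and with depth.

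Igkv transcripts were present at 23.7 and 76.9 CPM of the table cells in SFB-positive replicates 1 and 2, against 10.4 and 157 CPM in SFB-negative replicates 1 and 2. The groups overlapped, with SFB-negative replicate 2 highest and SFB-negative replicate 1 lowest. Set against the constant gene, SFB-positive replicates 1 and 2 had 1.15 and 6.42 Igkv UMIs per 1000 Igkc UMIs, and SFB-negative replicates 1 and 2 had 0.852 and 33.5. Heavy-chain variable segments per 1000 heavy-chain constant UMIs followed the same order of replicate 2 over replicate 1 (1.11 and 8.97 in SFB-positive libraries, 1.45 and 61.9 in SFB-negative libraries). Lambda variable segments per 1000 lambda constant UMIs varied less (10.1 and 20.5 in SFB-positive libraries, 9.62 and 17.5 in SFB-negative libraries). The ratio of Igkv to Igkc stood higher in SFB-negative replicate 2 than in each of the other libraries in every cluster from 0 to 6. In cluster 0, SFB-positive replicates 1 and 2 had 1.19 and 9.37 Igkv UMIs per 1000 Igkc, and SFB-negative replicates 1 and 2 had 0.948 and 38.1. A higher Igkv level in SFB-negative replicate 2 therefore stood beside a higher yield of variable over constant sequence in all its cell types, and the part of that yield in the results below was not tested.

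**Figure D1:**
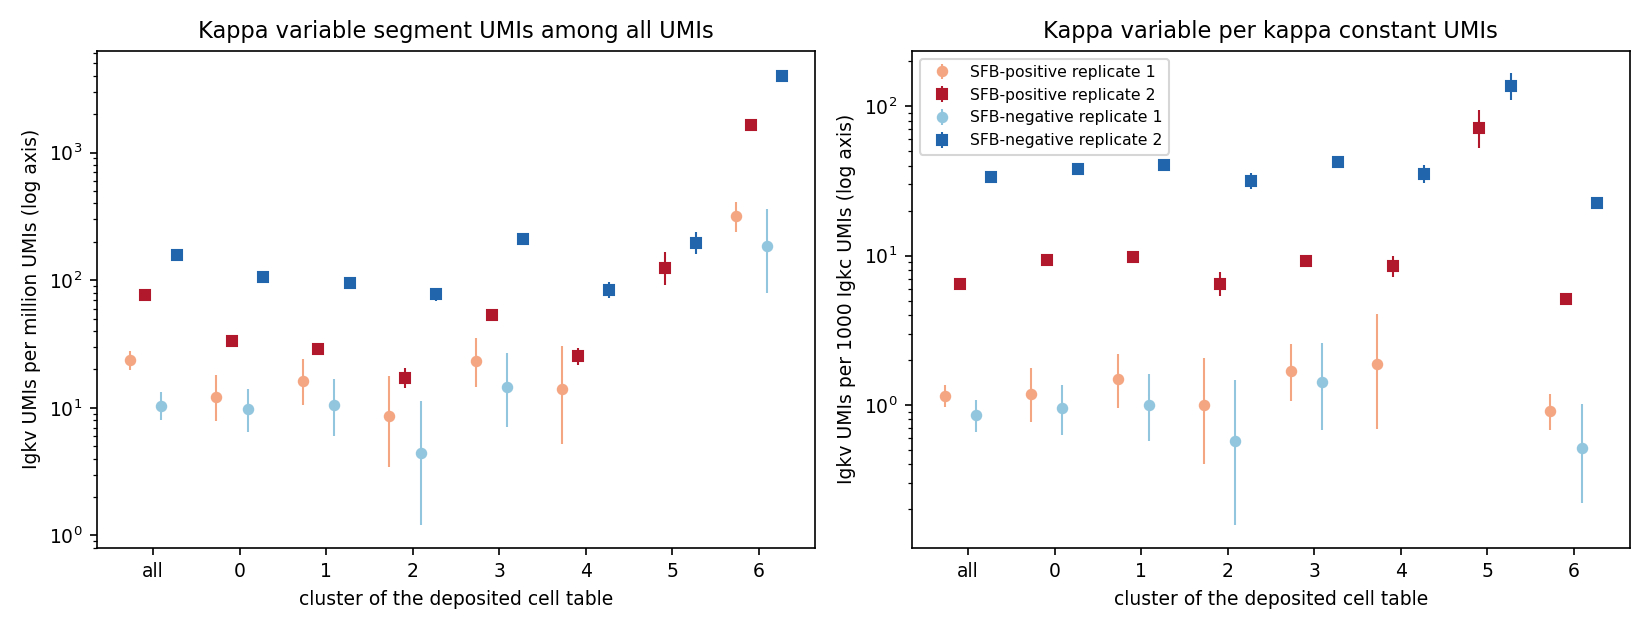
Igkv CPM (left) and per 1000 Igkc UMIs (right), both on log axes, for all table cells and clusters 0 to 6 in each library; bars are 95% Poisson intervals of the Igkv count, and values of 0 are not drawn. SFB-negative replicate 2 lies highest in every cluster on the right axis, and cluster 6 lies highest on the left axis in each library.

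Plasma-like cluster 6 carried the most Igkv RNA per cell. Its level was 318 and 1640 CPM in SFB-positive replicates 1 and 2 (24 and 68 cells), against 185 and 3957 CPM in SFB-negative replicates 1 and 2 (6 and 30 cells). An Igkv UMI was seen in 97.1% of SFB-positive replicate 2 plasma-like cells and in 96.7% of those of SFB-negative replicate 2. In cluster 3 the level was 23.2 and 53.8 CPM in SFB-positive libraries and 14.7 and 210 CPM in SFB-negative libraries, and 44.3% of SFB-positive replicate 2 cells and 60.4% of SFB-negative replicate 2 cells had an Igkv UMI. With every cell thinned to 1000 UMIs, which left out no cell of either cluster, the shares were 70.6% in SFB-positive and 80% in SFB-negative replicate 2 in cluster 6, and 5.06% and 19.1% in the same libraries in cluster 3. Naive-like cluster 0 gave 12.2 and 33.6 CPM in SFB-positive libraries and 9.80 and 106 CPM in SFB-negative libraries. Free RNA was gauged in T-lineage barcodes outside the table, which should lack kappa transcripts (median depths of 6485 and 3488 UMIs in the replicate 2 libraries, against 5864 and 3252 in table cells). There an Igkv UMI was found in 0 of 250 and 0.305% of 984 SFB-positive barcodes and in 0 of 234 and 1.28% of 784 SFB-negative barcodes, where a count of 0 allows up to 1.20% and 1.28%. These shares were below those of every cluster of the same replicate 2 library. In replicate 1, an Igkv UMI was found in 1.69% of SFB-positive and 1.30% of SFB-negative cluster 0 cells, close above those limits.

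A cell was assigned to a segment where it had at least 2 Igkv UMIs and 1 segment held over 50% of them. This assigned 16 of 3408 and 289 of 7380 SFB-positive cells, and 2 of 4050 and 598 of 7731 SFB-negative cells. Usage per cell is therefore a comparison of 1 library per group, replicate 2, with no test, and its intervals are exact binomial ones that cover counting error only. Of cells with any Igkv UMI, 1359 of 1466 in SFB-positive and 2094 of 2273 in SFB-negative replicate 2 had a segment over 50%. A cell with 1 UMI always has one. Among cells with at least 5 Igkv UMIs, 1 segment dominated in most. The leading segment held a median of 92.9% of them in the 85 cells of SFB-positive replicate 2 and 92.9% in the 115 cells of SFB-negative replicate 2. Plasma-like cluster 6 gave 57 of the 85 cells, and germinal-centre-like cluster 3 gave 70 of the 115. A second segment with at least 2 UMIs was present in 32 of the 85 cells and in 29 of the 115, and from the leading segment's own family in 5 and 15 of these. Doublets were not removed here.

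Over all table cells the leaders were the same near-identical pair in both replicate 2 libraries, in reverse order. Igkv1-117 held 62 of 289 assigned cells (21.5%) in SFB-positive replicate 2 and 99 of 598 (16.6%) in SFB-negative replicate 2. Igkv1-110 held 49 of 289 (17.0%) in SFB-positive replicate 2 and 136 of 598 (22.7%) in SFB-negative replicate 2. The assigned cells were spread over 56 and 61 segments. The chance that 2 assigned cells drawn at random share a segment was 8.26% in SFB-positive replicate 2 and 9.0% in SFB-negative replicate 2. These values depended on the minimum of UMIs. At 1 or more Igkv UMIs, Igkv1-110 led narrowly in SFB-positive replicate 2 as well (11.5%, against 11.3% for Igkv1-117), and the chance was 4.07% in SFB-positive and 4.01% in SFB-negative replicate 2. At 5 or more it was 5.95% in SFB-positive and 25.4% in SFB-negative replicate 2. The replicate 1 libraries did not have these leaders. Igkv19-93 held 24 of 141 Igkv UMIs in SFB-positive replicate 1, where Igkv1-110 had 0, and Igkv1-110 had 4 of 66 in SFB-negative replicate 1. Across the 125 segments the UMI shares of the 2 replicate 2 libraries correlated with Pearson's r of 0.74 and Spearman's rho of 0.81. Those of the 2 replicate 1 libraries correlated with r of 0.61 and rho of 0.42. The pairs of replicates within a group had r of 0.34 and rho of 0.48 in SFB-positive libraries, and r of 0.41 and rho of 0.46 in SFB-negative libraries. By rho the replicate 1 pair was thus below both pairs within a group. These describe segments, which share libraries and depth, and are not tests.

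Along the locus, pooled usage was highest at both ends, which held in the replicate 2 libraries and not in the replicate 1 libraries. Split into 3 stretches of equal length, the stretch nearest Igkj1 held 40.1% of the Igkv UMIs with 49 members, the middle stretch 14.1% with 43 members, and the farthest stretch 45.8% with 33 members. The nearest stretch held 55.1% and 49.4% of the UMIs in SFB-positive replicates 1 and 2, against 44.1% and 32.4% in SFB-negative replicates 1 and 2. The middle stretch held 33.3% and 14.1% in SFB-positive libraries and 36.8% and 13.4% in SFB-negative libraries. The farthest stretch held 11.6% and 36.5% in SFB-positive libraries and 19.1% and 54.2% in SFB-negative libraries, so it differed more between replicates than between groups. Over the 98 functional genes, UMIs had little rank relation to distance from Igkj1 (rho of -0.06), to the longest run of A in the transcript (0.11), to GC content (-0.15) or to transcript length (0.19).

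**Figure D2:**
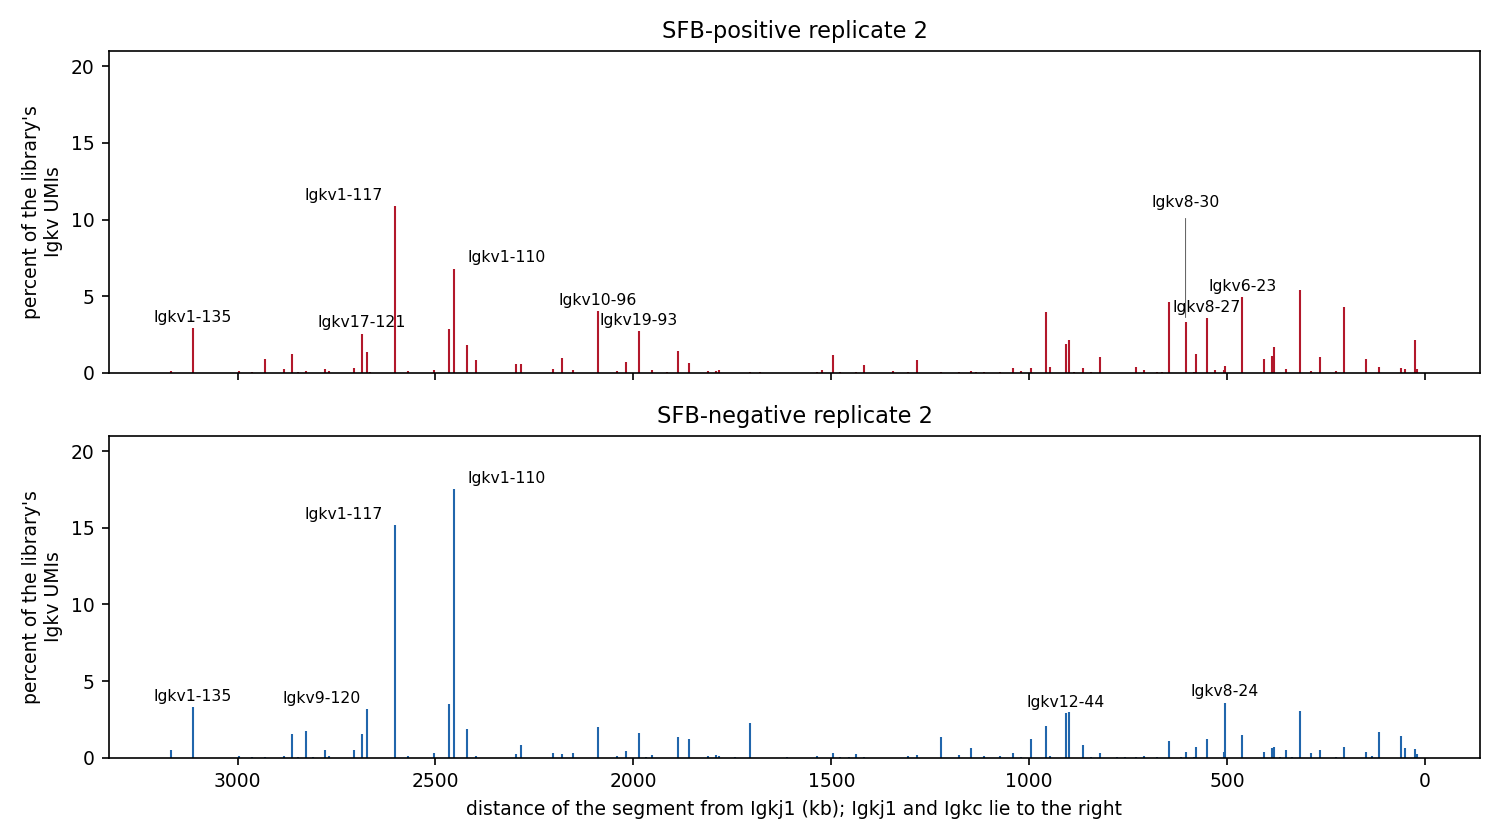
Percent of a library's Igkv UMIs in each of the 125 segments (vertical lines) against distance from Igkj1 in kb, with Igkj1 at the right, for SFB-positive replicate 2 (top) and SFB-negative replicate 2 (bottom). Igkv1-110 and Igkv1-117 are the 2 tallest lines in both libraries, with Igkv1-117 taller in SFB-positive replicate 2 and Igkv1-110 taller in SFB-negative replicate 2; labels name the segments described in the text with over 2.5%.

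In the germinal-centre-like cells of SFB-negative replicate 2, Igkv1-110 was the leading segment. In cluster 3, Igkv1-110 held 18 of 121 assigned cells in SFB-positive replicate 2 (14.9%, interval 9.06% to 22.5%) and 81 of 207 in SFB-negative replicate 2 (39.1%, interval 32.4% to 46.1%). Igkv1-117 held 24 (19.8%) in SFB-positive replicate 2 and 35 (16.9%) in SFB-negative replicate 2, with overlapping intervals. The chance that 2 assigned cells share a segment was 6.96% in SFB-positive replicate 2, over 42 segments, and 19.5% in SFB-negative replicate 2, over 30 segments. It was 4.44% in SFB-positive and 9.88% in SFB-negative replicate 2 at 1 or more Igkv UMIs, and 17.6% in SFB-positive (21 cells) and 34.9% in SFB-negative replicate 2 (65 cells) at 5 or more. Counted in UMIs, Igkv1-110 made up 9.67% of the cluster's Igkv UMIs in SFB-positive replicate 2 and 31.6% in SFB-negative replicate 2. A yield common to all segments drops out of this share, and whether segments differ in yield was not tested. The Igkv1-110 UMIs were spread over many cells, since the cell with most of them had 4 of 77 in SFB-positive replicate 2 and 15 of 383 in SFB-negative replicate 2. In replicate 1, cluster 3 had 0 Igkv1-110 UMIs of 22 in the SFB-positive library and 0 of 10 in the SFB-negative library. By counting error alone, a count of 0 there allows a share of up to 13.6% in SFB-positive and 30.0% in SFB-negative replicate 1. In shallow cluster 5, no segment held more than 1 of the 5 assigned cells in SFB-positive replicate 2, and Igkv1-110 held 5 of 14 in SFB-negative replicate 2.

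Naive-like cluster 0 showed another order. Igkv1-117 held 14 of 39 assigned cells in SFB-positive replicate 2 (35.9%, interval 21.2% to 52.8%) and 27 of 197 in SFB-negative replicate 2 (13.7%, interval 9.23% to 19.3%). Igkv1-110 held 9 (23.1%) in SFB-positive replicate 2 and 31 (15.7%) in SFB-negative replicate 2. The chance of a shared segment was 17.8% in SFB-positive replicate 2 and 5.82% in SFB-negative replicate 2. At 1 or more Igkv UMIs these differences were far smaller: Igkv1-117 held 12.1% of assigned cells in SFB-positive and 9.97% in SFB-negative replicate 2, and the chance was 4.13% in SFB-positive and 3.45% in SFB-negative replicate 2. The UMI shares stood closer, with Igkv1-117 at 13.9% in SFB-positive and 10.6% in SFB-negative replicate 2, and Igkv1-110 at 10.5% and 9.55% in the same libraries. In memory-like cluster 4 the pair tied in both libraries, at 3 of 12 assigned cells each in SFB-positive replicate 2 and 4 of 26 each in SFB-negative replicate 2.

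**Figure D3:**
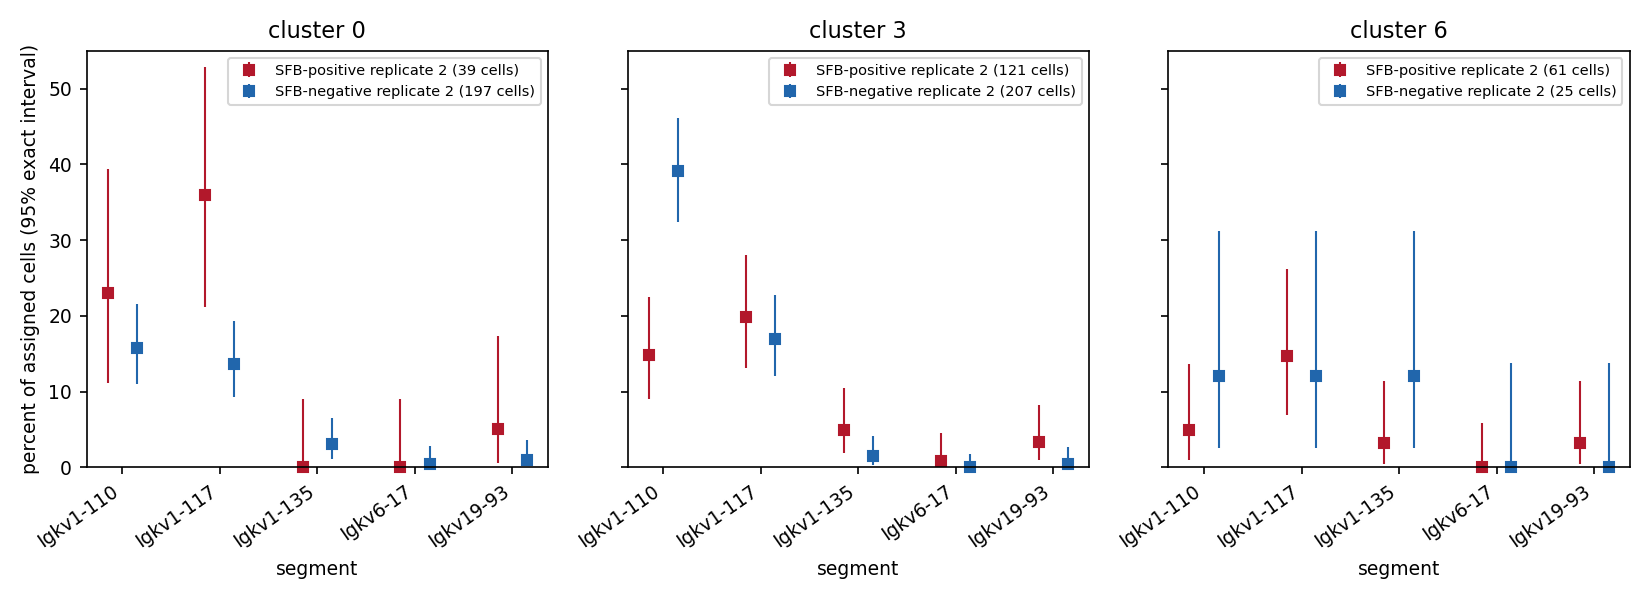
Percent of assigned cells held by 5 of the named segments in clusters 0, 3 and 6, with 95% exact binomial intervals, for SFB-positive replicate 2 (left of each pair) and SFB-negative replicate 2 (right of each pair); the number of assigned cells stands in the legends. The intervals of Igkv1-110 in cluster 3 do not overlap, at 14.9% in SFB-positive replicate 2 and 39.1% in SFB-negative replicate 2.

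Plasma-like cells were varied by cell count and uneven by UMI count. Of the 61 assigned cells of SFB-positive replicate 2, spread over 31 segments, Igkv1-117 held 9 (14.8%). Of the 25 of SFB-negative replicate 2, spread over 15 segments, no segment held more than 3 (12.0%), and Igkv1-110, Igkv1-117 and Igkv1-135 were among those at 3. The chance of a shared segment was 3.77% in SFB-positive replicate 2 and 4.67% in SFB-negative replicate 2. Single cells supplied most UMIs of several segments. All 160 Igkv8-30 UMIs of cluster 6 in SFB-positive replicate 2 came from 1 cell, as did 136 of the 156 Igkv8-27 UMIs. In SFB-negative replicate 2, 1 cell held all 118 Igkv9-120 UMIs of the cluster and 1 cell held 93 of the 172 Igkv8-24 UMIs. In replicate 1, the 12 assigned SFB-positive cells carried 11 segments, and 11 of 12 Igkv6-13 UMIs over the whole library came from 1 cell.

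In cluster 3 of SFB-negative replicate 2, Igkv1-110 was often found with the heavy-chain variable segment Ighv1-47. Of the 81 cells assigned to Igkv1-110 in cluster 3, 19 had a call for a heavy-chain variable segment, and 17 of these were Ighv1-47, a gene chosen after its values were seen. Ighv1-47 itself was found in 0 of 203 and 4 of 830 (0.482%) SFB-positive cells of cluster 3, and in 0 of 148 and 122 of 719 (17.0%, interval 14.3% to 19.9%) SFB-negative cells. A count of 0 allows up to 1.48% in SFB-positive and 2.03% in SFB-negative replicate 1. In SFB-negative replicate 2 the T-lineage barcodes had it in 0.255% of 784 and cluster 0 in 0.346% of 3752 cells, so the cluster 3 share stood above the level of free RNA. An Ighv1-47 UMI was present in 48 of the 108 cluster 3 cells with an Igkv1-110 UMI, but in 0 of 71 such cells of cluster 0 and 1 of 22 of cluster 4. Igkv1-110 was present in 48 of the 122 cells with an Ighv1-47 UMI (39.3%, interval 30.6% to 48.6%) and in 60 of the 597 without one (10.1%, interval 7.76% to 12.7%). Of the 46 Ighv1-47 cells that were assigned to a kappa segment, 35 (76.1%, interval 61.2% to 87.4%) were assigned to Igkv1-110 and 2 to Igkv1-117. Outside the table, 24 of 29 assigned Ighv1-47 cells of the same library carried Igkv1-110, and in cluster 6 it was 2 of 5. In SFB-positive replicate 2 both assigned Ighv1-47 cells of cluster 3 carried another segment.

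The same cells mostly carried IgG1 RNA. In SFB-negative replicate 2, Ighg1 (the IgG1 constant gene) was the leading heavy-chain constant gene in 68 of the 81 Igkv1-110 cells of cluster 3 (84.0%, interval 74.1% to 91.2%). It led in 23 of 35 Igkv1-117 cells (65.7%) and in 62 of 89 cells of other segments (69.7%), with overlapping intervals. In SFB-positive replicate 2 it led in 0 of 18 Igkv1-110 cells, 1 of 24 Igkv1-117 cells and 5 of 79 cells of other segments. Over whole cluster 3, Ighg1 led in 7.96% and 5.68% of cells with a constant-gene UMI in SFB-positive libraries, and in 44.6% and 61.7% in SFB-negative libraries. With the 51 cells of SFB-positive replicate 2 and the 182 of SFB-negative replicate 2 that had a UMI of Igkv1-110 or Ighv1-47 left out, the shares were 5.79% in SFB-positive replicate 2 and 54.2% in SFB-negative replicate 2. Of the UMIs of heavy-chain constant genes, Ighg1 made up 3.92% in SFB-positive replicate 2 and 39.4% in SFB-negative replicate 2 without those cells, and 3.75% and 46.7% in the same libraries with them. The IgG1 difference in cluster 3 was thus also present among cells in which neither segment was detected, and in replicate 1, where no cell had either. Because only some cells of a kind yield a variable UMI, undetected carriers may remain among the cells kept.

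**Figure D4:**
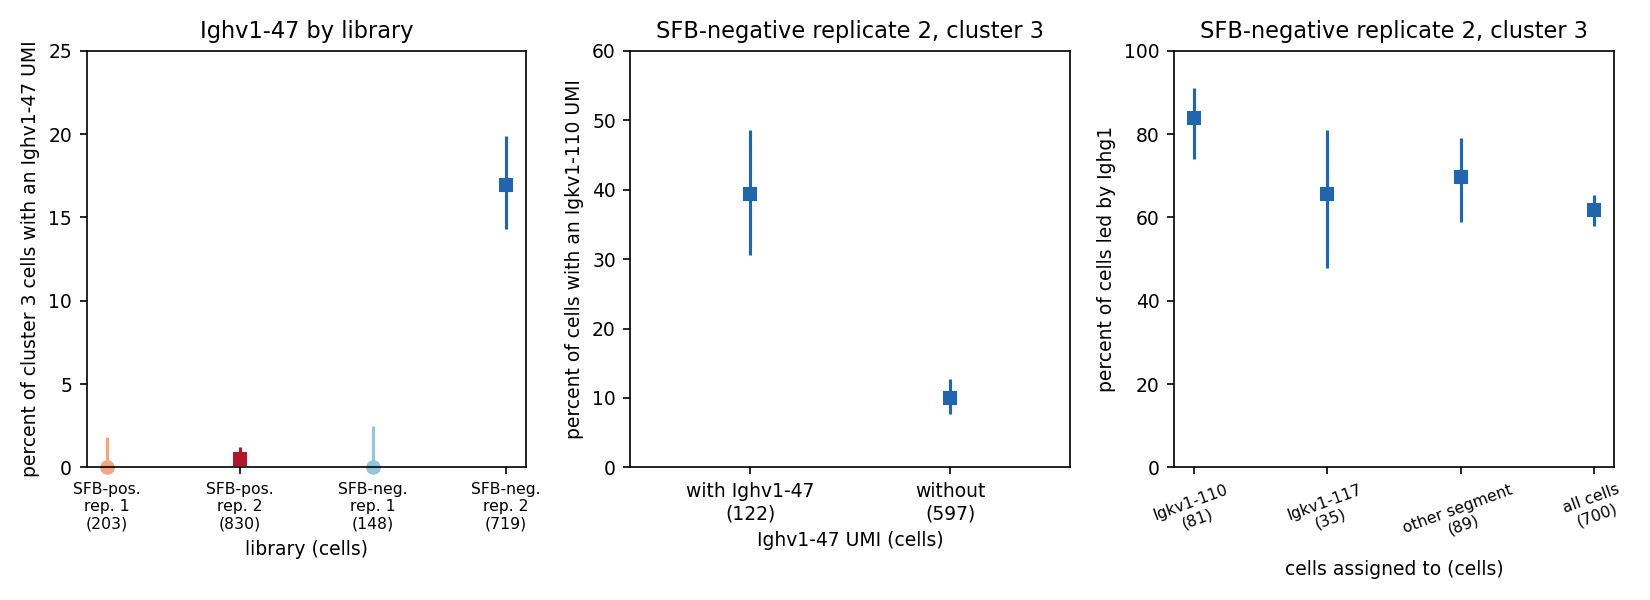
Cluster 3 cells: percent with an Ighv1-47 UMI in each library (left), percent with an Igkv1-110 UMI among cells with and without an Ighv1-47 UMI in SFB-negative replicate 2 (middle), and percent led by Ighg1 among that library's cells by assigned kappa segment (right); bars are 95% exact binomial intervals and numbers of cells stand under the axes. Ighv1-47 reaches 17.0% in SFB-negative replicate 2 and is at or below 0.482% in the other libraries, and Igkv1-110 is at 39.3% with Ighv1-47 and 10.1% without.

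SFB-positive and SFB-negative libraries were then compared over summed counts with edgeR's quasi-likelihood test. Of the 125 members, 34 passed the low-count filter over all table cells, 7 in cluster 0, 3 in cluster 1, 2 in cluster 3 and 0 in clusters 2 and 4, while clusters 5 and 6 had too few cells in replicate 1 for a fit. A member that passed only through the libraries of 1 group, where it is high, had to differ between groups. These counts are therefore no sample of all members. No member and no gene passed an adjusted p of 0.05 in any of these fits (0% of 12268 genes over all table cells, with 12 genes and 0 members at an unadjusted p under 0.05). DESeq2's Wald test called 2 genes and 0 members there. The replicate number went with Cell Ranger version, tags and depth, so it was also fitted as a term in the model (the replicate block), and edgeR then called 443 of the 12268 genes (3.61%), of which 329 were lower (2.68%) and 114 higher (0.929%) in SFB-positive libraries. Among the 34 members tested, 6 were called lower and 1 higher, and their median log2 difference was -0.50, against -0.02 over all genes. In that fit the spread is taken from all genes together, and for the Igkv segments it rests on the replicate 2 libraries, which hold nearly all their UMIs.

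Igkv1-110 had 0 and 4.38 CPM (scaled by TMM) in SFB-positive replicates 1 and 2 over all table cells, against 0.690 and 27.4 CPM in SFB-negative replicates 1 and 2. It was lower in both SFB-positive libraries than in the SFB-negative library of the same number, and the groups overlapped. All 4 Igkv1-110 UMIs of SFB-negative replicate 1 came from 1 plasma-like cell. Its log2 difference was -2.68 (SE 0.31) with an edgeR adjusted p of 1.63e-14 with the replicate block, and -2.59 with an adjusted p of 1.00 without it. Igkv1-117 had 0.726 and 6.85 CPM in SFB-positive libraries and 0.345 and 21.3 CPM in SFB-negative libraries. It was higher in SFB-positive replicate 1 and lower in SFB-positive replicate 2, and the log2 difference with the block was -1.47 (SE 0.30, edgeR adjusted p of 1.48e-04). The other members called lower with the block were Igkv1-135 (-1.69), Igkv12-44 (-1.54), Igkv8-24 (-3.64) and Igkv9-120 (-2.71), and Igkv8-30 was called higher (2.37). Igkv8-30 had 0.908 and 2.29 CPM in SFB-positive libraries and 0 and 0.511 CPM in SFB-negative libraries. These did not overlap, but 160 of its 166 table UMIs in SFB-positive replicate 2 were those of the single plasma-like cell. The same holds in part for Igkv8-24 and Igkv9-120, of which 1 cell held 93 of 212 and 118 of 183 UMIs in SFB-negative replicate 2.

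With cluster 6 left out, 18 members were tested, and with the replicate block 9 were called lower and 0 higher in SFB-positive libraries (2.67% of 12199 genes were lower). The 18 members had a median log2 difference of -1.96, against -0.02 over all genes. A call here need not set a member apart from the others tested. Igkv8-24, Igkv8-30 and Igkv9-120 no longer passed the filter on low counts. Igkv1-110 (-2.61), Igkv1-117 (-1.91), Igkv1-135 (-2.01) and Igkv12-44 (-1.58) kept their calls, and Igkv17-121 (-2.07) and Igkv17-127 (-2.33) gained one. In cluster 0 the block fit called 229 of 10612 genes (2.16%, of which 1.92% lower), and 3 of the 7 members were lower. These were Igkv1-110 (-1.84), Igkv1-117 (-1.51) and Igkv12-44 (-1.73). The median over the 7 was -1.66, against -0.01 over all genes, so the called members stood near the others tested. In cluster 3 the block fit called 133 of 9876 genes (1.35%, of which 0.972% lower), and both members tested were lower. There Igkv1-110 had 0 and 4.74 CPM in SFB-positive libraries and 0 and 71.6 CPM in SFB-negative libraries, a log2 difference of -3.91 (SE 0.40, edgeR adjusted p of 5.38e-19 with the block and 1.00 without). Both replicate 1 libraries were at 0, so that call rests on 1 library per group. Igkv1-117 had 0 and 6.95 CPM in SFB-positive libraries and 1.46 (1 UMI) and 37.4 CPM in SFB-negative libraries, a log2 difference of -2.44 with the block. All Igkv UMIs of the cluster together stood at 53.8 CPM in SFB-positive and 210 CPM in SFB-negative replicate 2. Igkv1-117 made up 14.2% and 16.5% of them in the same libraries, and the part of the overall yield in its call was not tested. In cluster 1, where the block fit called 98 of 9990 genes (0.981%), none of the 3 members passed it, although 2 were at an unadjusted p under 0.05 in the block fit (Igkv1-110 at -1.33 and Igkv1-117 at -1.75). Clusters 2 and 4 had 102 of 8913 (1.14%) and 130 of 8500 (1.53%) genes called with the block.

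A fit added after the data were seen asked whether the SFB difference of a member was itself different in germinal-centre-like cells. It covered clusters 3 and 0, with a term for each library so that a library's overall yield drops out. The Igkv1-110 difference was lower in cluster 3 than in cluster 0 by a log2 value of -2.25 (SE 0.54, p of 8.06e-05, edgeR adjusted p of 0.146 over 10840 genes), which did not pass the limit. Igkv1-110 was at 0 CPM in both replicate 1 libraries in either cluster, so its value rests on 1 library per group. None of the 7 members tested passed the limit, and 5 genes did (0.0461%). The same fit for clusters 1 and 4 against cluster 0 called 0 of 13 and 0 of 3 members (0.00933% and 0.0703% of all genes).

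**Figure D5:**
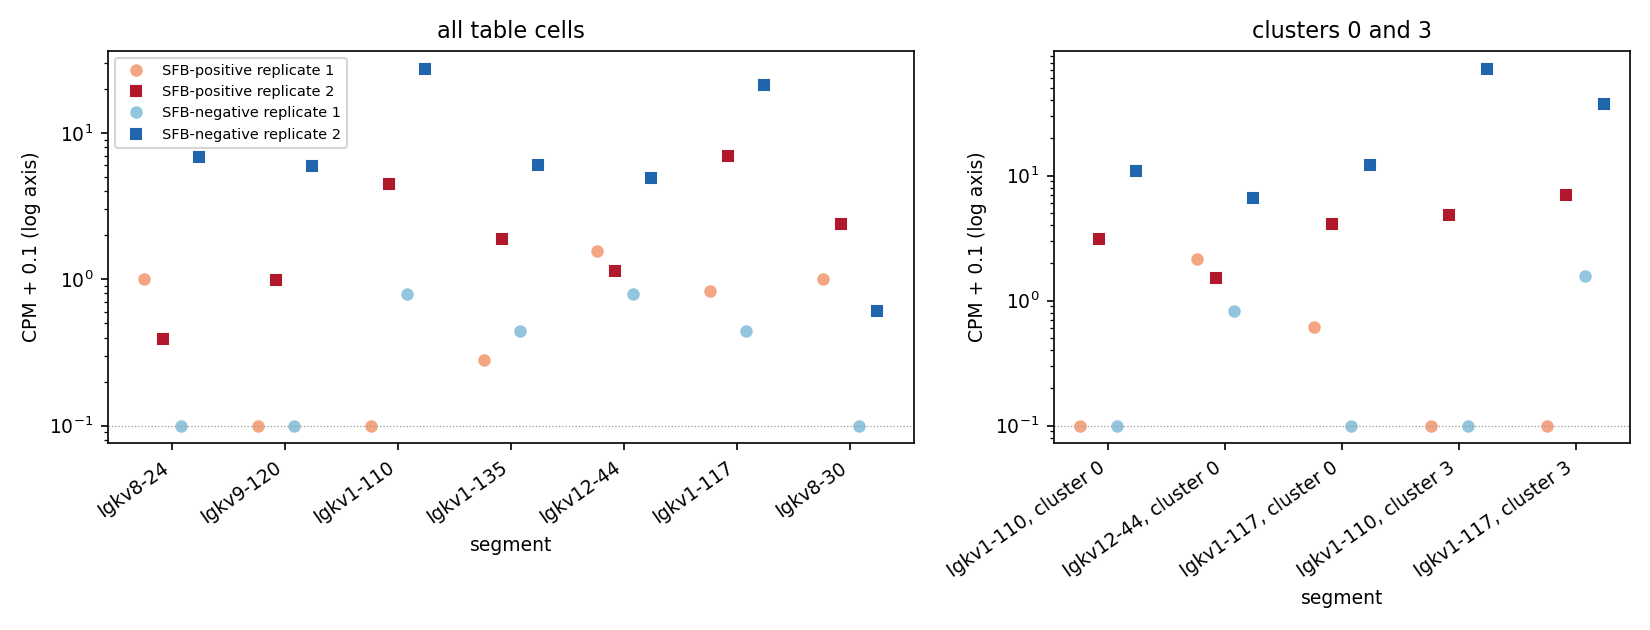
TMM-scaled CPM plus 0.1, on log axes, of the 7 members called with the replicate block over all table cells (left) and of those called in clusters 0 and 3 (right), 1 point per library, in the order SFB-positive replicates 1 and 2, then SFB-negative replicates 1 and 2; the dotted line marks 0 CPM. SFB-negative replicate 2 is highest for 6 of the 7 members, and Igkv8-30 is highest in SFB-positive replicate 2.

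As shares of all Igkv UMIs over the table cells, which takes out the overall yield, 10 of 120 members were higher in both SFB-positive than in both SFB-negative libraries (8.33%) and 9 were lower in both (7.5%). Of the 15 segments chosen by rule for description, 5 were among the higher and 1 among the lower. Igkv10-96 made up 4.96% and 4.27% of Igkv UMIs in SFB-positive libraries and 3.03% and 2.12% in SFB-negative libraries. Igkv6-23 made up 7.09% and 3.86% in SFB-positive libraries and 1.52% and 1.30% in SFB-negative libraries. Igkv17-121, Igkv6-13 and Igkv8-30 were also higher, and Igkv1-135 was lower, at 0.709% and 2.81% in SFB-positive libraries and 3.03% and 3.68% in SFB-negative libraries. The replicate 1 shares rest on few UMIs. In SFB-negative replicate 1, Igkv10-96 and Igkv1-135 had 2 of 66 each and Igkv6-23 had 1, and Igkv1-135 had 1 of 141 in SFB-positive replicate 1. The exact two-sided permutation test over the 4 libraries cannot go below a p of 0.33, which each of these segments reached. In SFB-positive replicate 2, 1 cell supplied 75 of the 177 Igkv6-23 UMIs and 54 of the 196 Igkv10-96 UMIs. Igkv1-110 averaged 3.46% ± 4.89 of Igkv UMIs in SFB-positive libraries and 11.5% ± 7.72 in SFB-negative libraries (SD, n = 2 each), a difference within the spread (exact permutation p of 0.667). Plasma-like cluster 6 gave 56 of 141 and 2541 of 4585 Igkv UMIs in SFB-positive replicates 1 and 2. It gave 8 of 66 and 1263 of 5058 in SFB-negative replicates 1 and 2. Without overlap, Igkv10-96 averaged lower in SFB-positive libraries in cluster 0 (3.79%, against 5.77%), and so did Igkv6-23 in cluster 3 (1.07%, against 6.11%). The replicate 1 libraries held few Igkv UMIs there, 25 (SFB-positive) and 28 (SFB-negative) in cluster 0, and 22 and 10 in cluster 3. In replicate 2, Igkv10-96 stood at 3.59% (SFB-positive) and 4.39% (SFB-negative) in cluster 0, and Igkv6-23 at 2.14% and 2.23% in cluster 3. Igkv10-96 and Igkv6-23 were both higher without overlap in cluster 6, and Igkv6-23 also in cluster 2. There too the replicate 1 counts were low, with 8 Igkv UMIs in cluster 6 of SFB-negative replicate 1. Cluster 2 had 7 in SFB-positive and 4 in SFB-negative replicate 1, so a single UMI can set such a share. The part of the cluster mix was not tested.

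Of 36 genes of kappa assembly, antibody transcription and hypermutation that were listed as background, 26 were tested over all table cells. Without the block none was called, and with it 2 were called higher in SFB-positive libraries and 0 lower, with a median log2 difference of 0.18 over the list and -0.02 over all genes. Both were lambda light-chain genes, the alternative to kappa. The constant gene Iglc1 had 2852 and 833 CPM in SFB-positive libraries and 454 and 725 CPM in SFB-negative libraries (1.42 with the block), and its variable segment Iglv1 had 32.5 and 24.9 CPM in SFB-positive libraries and 9.49 and 18.2 CPM in SFB-negative libraries (0.98 with the block). Both stood higher in SFB-positive libraries without overlap. In cluster 0 alone their log2 differences with the block were 0.02 and -0.05, and the table held 24 and 68 plasma-like cells in SFB-positive libraries and 6 and 30 in SFB-negative libraries, whose part in the result was not tested. Igkc had 22296 and 9872 CPM in SFB-positive libraries and 13359 and 4824 CPM in SFB-negative libraries, and was not called (0.89, edgeR adjusted p of 0.523 with the block). Igkc was chosen for mention after its values were seen.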

How the data were processed

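The authors deposited UMI counts per gene and barcode for 4 libraries, whole numbers without normalization, and a cell table that gives each cell's cluster, its count of UMIs and the percent of them that were mitochondrial. Cell Ranger 5.0.1 and mm10 stand in the submitters' processing notes, while the matrix headers name 6.0.0 for replicate 1 and 7.0.0 for replicate 2. For the cell filters, the annotation and the counting of introns, the sources used here give nothing. The members and lists were chosen with earlier results of these data known.

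Counts were summed per library over all table cells and per cluster with at least 20 cells in each library. They were tested in edgeR 4.0.16 (R 4.3.3; filterByExpr, TMM, quasi-likelihood test, Benjamini-Hochberg over all genes tested, limit 0.05), with DESeq2 1.42.0 as an alternative, and the test was checked on simulated data. T-lineage barcodes lay outside the table, under 10% mitochondrial, with at least 2 UMIs of Cd3 and T-cell receptor genes and none of the B-cell surface genes checked. Segments named are the 10 leading over all table cells by mean share of assigned cells over the 4 libraries, the leading 3 in clusters 3, 4 and 6, the leading one by UMIs in cluster 6 of each library and every segment past the limit. Genes of the background list are named where they passed the limit over all table cells. Sequences were read from GENCODE M21 transcripts (GRCm38), and no joined sequence was read. Intervals, and the 3 counts taken as the limit of a 0, cover counting error only.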

Additional observations from a re-analysis of the deposited data

How the results depend on the processing

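Without the replicate number in the model edgeR called 0 genes and 0 Igkv segments over all table cells and in clusters 0 to 4. With the replicate block the genes called were 443 over all table cells, then 229, 98, 102, 133 and 130 in clusters 0 to 4, and the Igkv segments called were 7 over all table cells, 3 in cluster 0 and 2 in cluster 3. With the block and without the cell of most Igkv UMIs per library, the genes called were 441 over all table cells, then 228, 87, 104, 131 and 131, and the segments 7, 3 and 2 as before. With the block and without cluster 6, 433 genes and 9 segments were called. The numbers are not stated to mark shared mice, but same-numbered libraries deviated together from their group means (correlations of 0.88 over all table cells and 0.75 to 0.87 in clusters 0 to 4, over 2 pairs). DESeq2's Wald test called 2 genes over all table cells and 1 in cluster 2, and edgeR without the low-count filter called 3 over all table cells and 1 each in clusters 2 and 3. Leaving out 1 library at a time, which leaves a lone library assumed to vary like the other group, gave 0 to 3 genes over all table cells and in cluster 0, 0 to 2 in cluster 1, 0 to 4 in cluster 2 and 0 to 7 in cluster 3. It gave 0 to 2 Igkv segments in cluster 3, with 2 only without SFB-negative replicate 1.

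The direction of several segments rested on SFB-negative replicate 2. Over the libraries left out, log2 differences over all table cells ran from -10.7 to 1.87 for Igkv1-110, from -3.90 to 3.61 for Igkv1-117 and from -4.08 to 1.72 for Igkv1-135. In cluster 0 they ran from -7.93 to 6.59 for Igkv1-110 and from -3.54 to 7.08 for Igkv1-117. Each turned positive only without SFB-negative replicate 2. The difference in the UMI share of Igkv1-117 over all table cells, -1.29 percentage points, ran from -6.38 to 3.80 and was positive without SFB-positive replicate 1 (2.70) or SFB-negative replicate 2 (3.80). In cluster 3 it ran from -13.3 to 0.94 for Igkv1-117, positive without SFB-positive replicate 1, and from -26.8 to 4.84 for Igkv1-110, positive without SFB-negative replicate 2. The cause was not tested.

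In cluster 3, the Igkv1-110 share of assigned cells in SFB-positive replicate 2 was 33.3% with each cell thinned to 1000 UMIs (3 cells). In SFB-negative replicate 2 it was 24.9% at 1 or more Igkv UMIs and 52.3% at 5 or more. The chance that a pair of cells shared a segment was 17.6% in SFB-positive replicate 2 at 5 or more Igkv UMIs (21 cells) and 0 after thinning, and in SFB-negative replicate 2 it was 9.88% at 1 or more and 34.9% at 5 or more. At 1.15 and 0.852 Igkv UMIs per 1000 Igkc UMIs, the replicate 1 libraries were too shallow to give a segment share per cluster. Usage per cell therefore has no second library in either group.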
